A study of Mus musculus with 20 samples.

Results

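The genes described here make and use glutathione or carry the peroxidase and thioredoxin reactions of the cell. They were chosen by name: every gene column whose symbol begins with Gsta, Gstm, Gstp, Gstt, Gsto, Mgst, Gpx, Prdx or Txn, together with Gclc, Gclm, Gss, Gsr, Nqo1 and Hmox1. This rule took 62 of 22936 gene columns, namely 23 glutathione transferases, 8 glutathione peroxidases, 7 peroxiredoxins, 6 thioredoxins, thioredoxin reductases and Txnip, 12 thioredoxin-domain proteins, and the 6 genes of glutathione synthesis and recycling counted with Nqo1 and Hmox1. Of these, 58 passed the filter on low counts and were tested. Gpx5, Prdx6b, Txndc2 and Txndc8 did not pass it, and none of them exceeded 0.113 CPM (UMI counts scaled to a common total per library, after TMM) in any library.

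Their RNA was counted by single-cell RNA-seq in mouse cell lines that were converted in opposite directions. XEN cells, stem cells of the extraembryonic endoderm (1 line, 3F-4), carried Col1A1TetO-OKSmCh/TetO-OKSmCh together with the activator R26M2rtTA/M2rtTA and the reporter Oct4-GFPTg/Tg. They thus held a doxycycline-inducible cassette of Oct4, Klf4, Sox2 and mCherry and were sampled before induction (XEN), on days 7, 14 and 28 of induction, and as finished XEN-iPS cells. ES cells (1 line, iGata4-Gata6-Venus, with Col1A1TetO-Gata4/+, the activator R26M2rtTA/+ and the reporter Gata6H2B-Venus/+) carried a doxycycline-inducible Gata4, fused to mCherry per the study's methods, and were sampled before induction (ES), after 9h, 24h and 48h, and as iXEN cells that had been induced for 4 days and then kept without doxycycline for 7 days. Each of the 10 conditions had 2 libraries, described as duplicates of the same sample. All media held 2-mercaptoethanol, a thiol. XEN and XEN-iPS cells and the induced XEN cells grew on fibroblast feeders, whereas ES cells were kept on gelatin. XEN and the induced XEN cells were in serum and LIF with ascorbic acid and a GSK3 inhibitor, and XEN-iPS and ES cells were in serum and LIF alone. Induced ES cells were on gelatin in serum and LIF with doxycycline, per the study's methods. Those methods place established iXEN cells on gelatin in XEN medium. For the sampled iXEN cells they name only the withdrawal of doxycycline. Before capture, cells of days 7, 14 and 28 and of 9h were sorted into subpopulations and mixed again, so their shares of cells are not those of the culture. Per the study's methods, induced XEN cells had also been selected for mCherry by sorting after 2 days of doxycycline. XEN-iPS cells descend from cells sorted on days 14 and 28 as Oct4-GFP-positive and PDGFRα-negative, then plated again.

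Glutathione is a tripeptide made by glutamate-cysteine ligase, whose subunits are Gclc and Gclm, and by glutathione synthetase (Gss), and Gsr returns its oxidized form to the reduced form. Glutathione peroxidases and peroxiredoxins reduce hydrogen peroxide and lipid peroxides, and thioredoxins, kept reduced by thioredoxin reductases, pass electrons to peroxiredoxins and to other proteins with disulfide bonds. Glutathione transferases join glutathione to reactive compounds, and several genes of these families, such as Nqo1, Gclc, Gclm and Hmox1, are known targets of the transcription factor Nrf2 (Nfe2l2). Endoderm of the yolk sac secretes large amounts of basement membrane and serum proteins, whose disulfide bonds form in the endoplasmic reticulum, where several thioredoxin-domain proteins, Gpx7, Gpx8 and Prdx4 reside.

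The files hold 134279 cells, of which 107233 were kept, between 1977 and 8677 per library, and their UMIs were summed per library to between 45475258 and 125699563. Left out were 20991 cells with fewer than 500 genes, 5012 cells of clusters with fibroblast markers (3824 of them in XEN-iPS replicate 2), 132 2-cell-like cells and 911 differentiating-like cells of ES. The same differentiating-like cluster holds 620 cells of iXEN replicate 1, which were kept; without them the calls numbered 31 in iXEN over XEN-iPS and 29 in iXEN over ES. The labels held against the marker sums. The 15 endoderm markers summed to between 13586 and 16244 CPM in XEN and between 20800 and 21839 in iXEN. In ES and XEN-iPS they summed to at most 522. The 12 pluripotency markers summed to between 6814 and 11306 CPM in ES and XEN-iPS. They summed to 5.82 and 6.05 CPM in XEN but to 171 and 206 CPM in iXEN. Some duplicates stood apart. Taken over all genes, log2 ratios of one duplicate to the other had an SD of 0.0821 for 9h but 0.666 for XEN-iPS, whose libraries carry different project numbers in their deposited names and whose 4 Y-linked genes summed to 0.278 and 48.6 CPM. The same sum was 28.7 and 35.6 CPM in XEN but at most 15.2 CPM from day 7 to day 28, and 5.15 and 5.61 CPM in iXEN but at most 0.125 in ES, so that not every pair of libraries is shown to come from a single culture. The 13 fibroblast markers summed to between 21.5 and 192 CPM in the kept XEN-iPS cells and to between 15.8 and 51.2 in XEN.

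All comparisons came from a single edgeR quasi-likelihood model of the 20 libraries, with Benjamini-Hochberg adjustment over 16718 genes. Called genes had to pass 0.05 in adjusted p and also differ by 1 or more log2 units, up or down, and errors below are the standard errors of log2 fold changes. Since the duplicates are described as technical, these p-values do not cover the variation between cultures. No label gives a sequencing run. XEN, day 28 and ES share a project number in the deposited names (called project number 1 here, the others being 2 to 4), and for day 7, day 14 and XEN-iPS against XEN and for each step against ES the project number and the condition cannot be told apart.

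The 58 tested members are plotted by family over the 20 libraries.

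**Figure D1:**
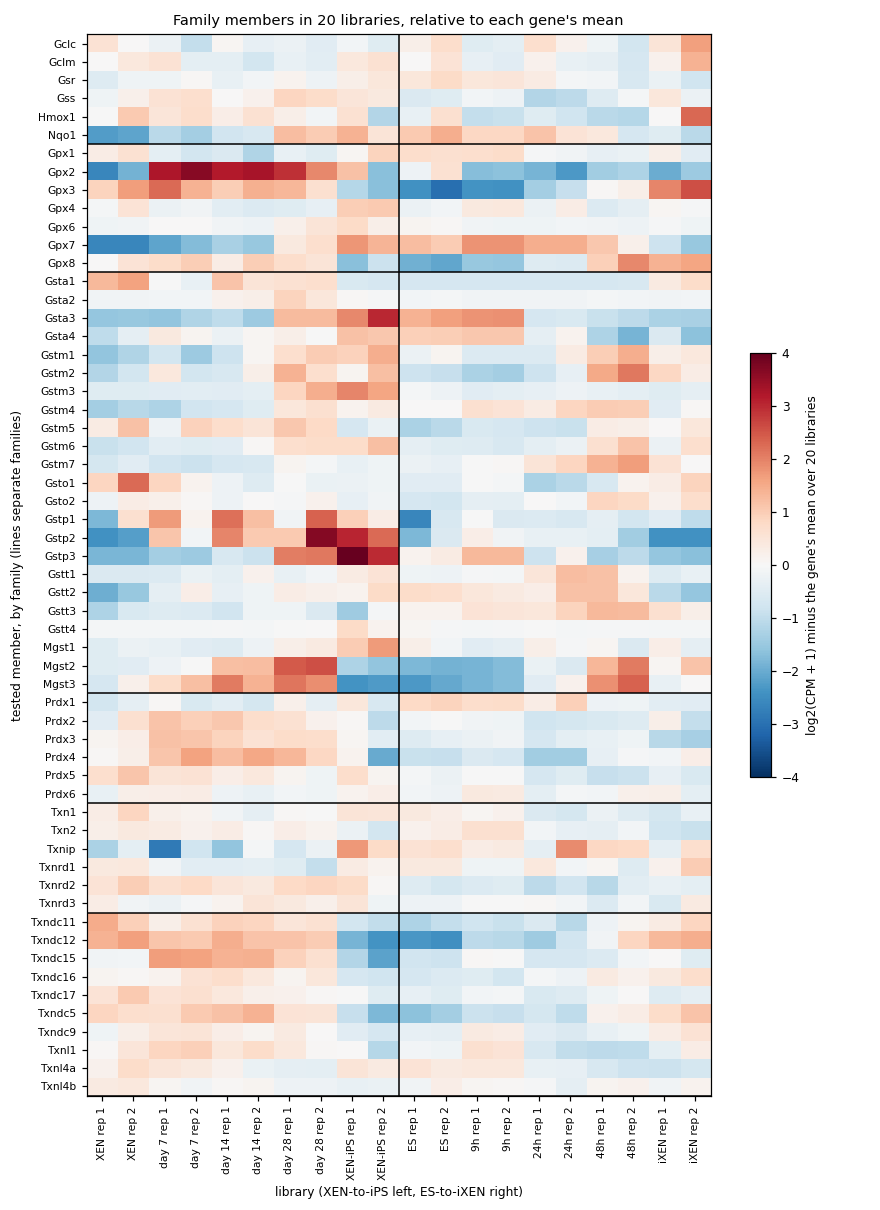
Each row is a tested member, grouped by family, and each column a library; the colour is log2(CPM + 1) minus the gene's mean over the 20 libraries, cut at 4 on either side. Gpx2, Gstp2, Gstp3, Mgst2 and Mgst3 changed colour along the conversions, while rows such as Prdx6 and Txnl4b stayed pale throughout.

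The first question was which of these genes separate pluripotent from endoderm cells, and it could be asked in pairs that share no library: in the starting lines (ES against XEN) and in the finished products (iXEN against XEN-iPS). Feeders, ascorbic acid and the GSK3 inhibitor differed along with line and cell state in ES against XEN and cannot be told apart from them. XEN-iPS cells also grew on feeders, and the culture of the sampled iXEN cells is not fully given. In ES against XEN, 32 of 58 members were called, 17 higher in ES and 15 lower, which is 55.2% beside 45.6% of all genes tested (23.5% higher, 22.2% lower); the median log2 fold change was -0.12 for the members and 0.03 for all genes. Without XEN replicate 1 the calls were 11 higher and 15 lower. In iXEN against XEN-iPS, 31 were called, 15 higher in iXEN and 16 lower, 53.4% beside 43.8% of all genes (22.8% higher, 20.9% lower), with medians of -0.36 and 0.04; with no cluster removed 8 were higher. With RLE in place of TMM scaling the second comparison gave 34 calls, 12 higher and 22 lower, and the members' values shifted by a median of -0.21. In all, 12 members were higher in the pluripotent cells of both pairs, 20.7% of the 58 beside 13.2% of all genes, and 10 were higher in the endoderm cells of both pairs, 17.2% beside 14.3%. In sums over a library, fewer cells of a type and less RNA per cell cannot be told apart. Both calls held in every alternative for 7 of the 12 and 7 of the 10. A single member, Gstt3, was called in opposite directions (1.72%, beside 1.59% of all genes), 9 were called in the starting lines alone (15.5% beside 16.6%), 8 in the products alone (13.8% beside 14.8%) and 18 in neither (31.0% beside 39.6%).

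By family the counts were as follows, with no test of a difference between families, beside 45.6% of all genes called in ES against XEN (23.5% higher, 22.2% lower) and 43.8% in iXEN against XEN-iPS (22.8% higher, 20.9% lower). Of 23 transferases, 18 were called in ES against XEN, 12 higher and 6 lower, with a median log2 fold change of 1.5, and 15 were called in iXEN against XEN-iPS, 5 higher and 10 lower; 13 of the 18 and 10 of the 15 were called in every alternative. Of the 10 thioredoxin-domain proteins tested, 5 were called in ES against XEN and all 5 were lower in ES, and of 7 called between the products 6 were higher in iXEN; 3 of the 5 and 4 of the 7 were called in every alternative. Among 6 thioredoxins, reductases and Txnip, only Txnrd2 was called between the starting lines, and between the products Txn1 (-0.98) and Txnrd2 (-0.89) had an adjusted p under 0.05 with a log2 fold change short of 1, and none was called. Of 6 genes of synthesis and recycling with Nqo1 and Hmox1, only Nqo1 was called between the starting lines, and 3 were called between the products, Gclc and Hmox1 higher in iXEN and Nqo1 lower, of which Nqo1 was called in every alternative. Of 7 glutathione peroxidases tested, 5 were called in ES against XEN, 3 higher and 2 lower, and 5 in iXEN against XEN-iPS, 2 higher and 3 lower; 4 of the first 5 and 3 of the second were called in every alternative. Of 6 peroxiredoxins tested, 2 were called in ES against XEN, 1 higher and 1 lower, and 1 in iXEN against XEN-iPS, lower in iXEN; Prdx5 in the first and Prdx3 in the second were lost in at least 1 alternative.

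**Figure D2:**
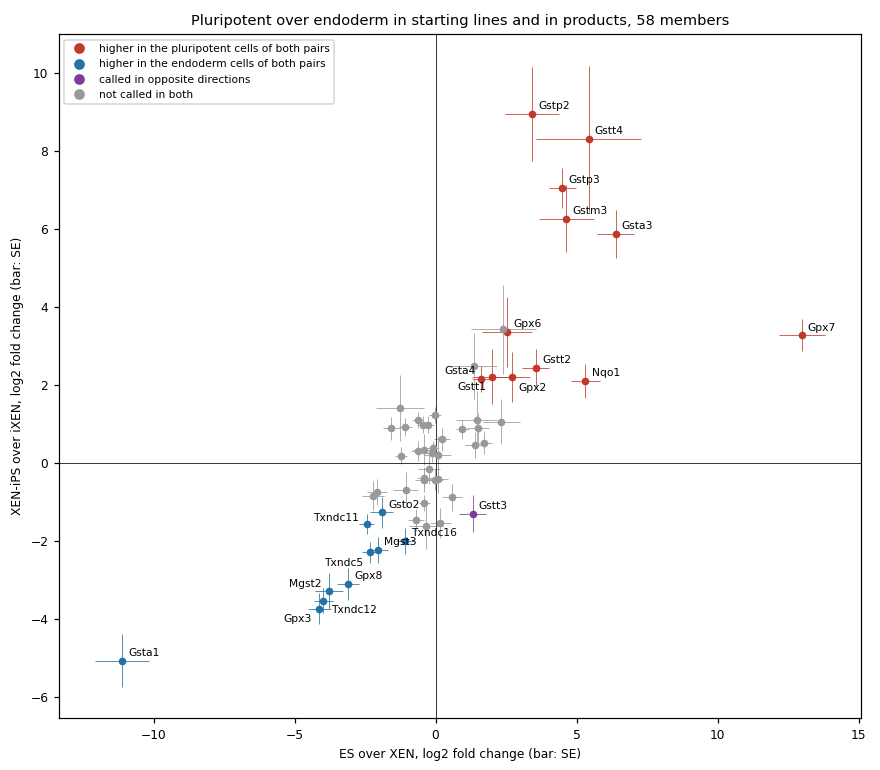
Each point is a tested member; the horizontal axis is the log2 fold change of ES over XEN and the vertical axis that of XEN-iPS over iXEN, with bars of 1 standard error. The 12 members of the upper right and the 10 of the lower left are named; the positions of Gpx7, Gsta1 and Gstt4 rest on a group with no UMI and depend on the fit's prior count.

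Related glutathione peroxidases went opposite ways. Gpx7 and Gpx8 are small peroxidases of the endoplasmic reticulum that lack selenocysteine, Gpx2 is a selenium enzyme known from the gut epithelium, and Gpx3 is the secreted form. The promoter windows of the first 3, from 250 bases before to 50 bases after the start site as RefSeq gives them for GRCm38.p6, are printed because the results on peroxidases turn on these genes; capitals mark CG dinucleotides. They lie at chr4:108406664-108406963, minus strand, at chr13:113046339-113046638, minus strand and at chr12:76795505-76795804, minus strand. The start used for Gpx7 lies downstream of the outermost start of its annotated span (108400390 to 108406961), and nearly all of its window lies within that span.
Gpx7: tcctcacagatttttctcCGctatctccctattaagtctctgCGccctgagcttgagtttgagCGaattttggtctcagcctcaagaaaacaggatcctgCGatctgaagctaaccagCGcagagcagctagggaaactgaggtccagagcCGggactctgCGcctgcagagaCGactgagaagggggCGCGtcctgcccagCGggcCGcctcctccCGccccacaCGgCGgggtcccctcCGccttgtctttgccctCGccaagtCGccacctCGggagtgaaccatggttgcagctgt
Gpx8: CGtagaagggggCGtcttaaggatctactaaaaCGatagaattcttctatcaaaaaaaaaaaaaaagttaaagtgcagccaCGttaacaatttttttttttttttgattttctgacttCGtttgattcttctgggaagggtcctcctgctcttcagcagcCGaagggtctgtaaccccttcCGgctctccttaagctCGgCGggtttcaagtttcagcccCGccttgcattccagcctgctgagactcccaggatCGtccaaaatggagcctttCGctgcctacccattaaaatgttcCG
Gpx2: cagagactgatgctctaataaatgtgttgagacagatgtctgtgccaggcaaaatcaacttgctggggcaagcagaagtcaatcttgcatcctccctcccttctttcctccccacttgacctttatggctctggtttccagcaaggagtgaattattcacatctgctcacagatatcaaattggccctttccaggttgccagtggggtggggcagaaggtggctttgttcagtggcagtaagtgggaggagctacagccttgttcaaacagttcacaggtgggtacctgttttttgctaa
Gpx7 has 19 CG in this window, Gpx8 has 13 and Gpx2 has none, beside a median of 7 over all 32851 promoters of the same length (quartiles 3 and 20). Aligned with each other, the Gpx7 and Gpx8 windows were identical at 45.4% of columns.

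Gpx7 (chromosome 4, 108400390 to 108406961) was not detected in XEN. It measured 0 and 0 CPM in XEN, 0.424 and 0.831 at day 7, 1.51 and 1.15 at day 14, 6.95 and 8.68 at day 28, ending at 19.9 and 14.7 in XEN-iPS, and 13.5 and 11.5 CPM in ES, 20.3 and 20.4 at 9h, 15.9 and 15.7 at 24h, 12 and 6.04 at 48h, ending at 2.42 and 1.14 in iXEN. It had no UMI in either XEN library, was higher in each later pair of libraries up to XEN-iPS, and fell in iXEN library sums without reaching 0. With 0 UMIs in XEN and 2810 in ES, it was at least 906-fold higher in ES (adjusted p = 1.97e-08), counted against a floor of 3 UMIs over the group, and at least 50.2-fold higher at day 7, at least 94-fold at day 14 and at least 558-fold at day 28. The removed fibroblast-type cells of day 7 replicate 1 held Gpx7 at 60.3 CPM over their own total, and the 13 fibroblast markers summed to 94.3 and 23.5 CPM in the kept cells of the day 7 libraries beside 15.8 and 51.2 CPM in XEN, with 0 and 2 of them at 0 at day 7 and 7 and 5 in XEN. The day 7 library with the lower marker sum had the higher Gpx7 level; the part of such RNA in the day 7 and day 14 values was not tested. Between the products the log2 fold change of iXEN over XEN-iPS was -3.28 ± 0.41 (adjusted p = 1.43e-05). The iXEN sums mix cells. By the position described below for day 28, 80.5% and 85.4% of the iXEN cells placed were endoderm-side. Pluripotent-side cells were 3.47% and 0.0492%, and the rest were intermediate. In XEN 99.8% and 99.4% were endoderm-side. The part of such cells in the iXEN values was not tested.

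Gpx8 (chromosome 13, 113042753 to 113046410) ran the other way. Its levels were 7.33 and 11.2 CPM in XEN, 12.8 and 15.1 at day 7, 9.15 and 15.1 at day 14, 12.4 and 10.9 at day 28, ending at 1.6 and 3.58 in XEN-iPS, and 1.19 and 0.949 CPM in ES, 1.88 and 1.84 at 9h, 4.75 and 4.59 at 24h, 15.1 and 30.1 at 48h, ending at 20.5 and 23.6 in iXEN. XEN and iXEN libraries were all above those of ES and XEN-iPS, and the 48h libraries lay on either side of those of iXEN. In library sums the fall was seen only in XEN-iPS. Pluripotent-side cells of day 28, described below, were already at 1.13 and 1.36 CPM. Gpx8 gave log2 fold changes of -3.11 ± 0.40 (adjusted p = 9.72e-06) for ES over XEN and 3.10 ± 0.40 (adjusted p = 1.35e-05) for iXEN over XEN-iPS. The second call was lost when no cluster was removed (log2 fold change -0.12), and XEN-iPS over XEN then turned to 1.31. In the removed fibroblast-type cells of XEN-iPS replicate 2 Gpx8 stood at 111 CPM against 4.13 in the kept cells of that library, both over the cells' own total.

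Gpx3 (chromosome 11, 54902453 to 54910377) followed Gpx8 at a higher level. Its levels were 151 and 260 CPM in XEN, 396 and 215 at day 7, 163 and 221 at day 14, 204 and 129 at day 28, ending at 36.2 and 24.8 in XEN-iPS, and 14.3 and 9.24 CPM in ES, 14.7 and 14.3 at 9h, 31.2 and 42.3 at 24h, 83.8 and 96.1 at 48h, ending at 315 and 492 in iXEN. Its libraries did not overlap in either pair, days 7, 14 and 28 overlapped with XEN, and it rose at each step from 24h to iXEN. The fit put Gpx3 at -4.12 ± 0.41 (adjusted p = 7.22e-07) for ES over XEN and 3.73 ± 0.40 (adjusted p = 2.72e-06) for iXEN over XEN-iPS in log2 units.

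Gpx2 (chromosome 12, 76792333 to 76795554) was called higher in the pluripotent cells of both pairs, yet its highest levels lay in between. It measured 3.01 and 5.56 CPM in XEN, 228 and 299 at day 7, 219 and 236 at day 14, 184 and 91.3 at day 28, ending at 53.6 and 6.54 in XEN-iPS, and 20.1 and 35.7 CPM in ES, 6.43 and 6.8 at 9h, 5.67 and 3.92 at 24h, 8.2 and 9.41 at 48h, ending at 5.2 and 7.85 in iXEN. The 6 libraries of days 7, 14 and 28 were above all others, the ES libraries were above the later steps, and the XEN-iPS duplicates differed by 8.19-fold, so that they overlapped with iXEN. Against XEN the log2 fold change was 5.94 ± 0.76 (adjusted p = 0.000107) at day 7 and 5.0 ± 0.73 (adjusted p = 9.3e-05) at day 28. In ES over XEN it was 2.70 ± 0.66 (adjusted p = 0.00253), and the call between the products, -2.21 ± 0.65 (adjusted p = 0.00939), was lost without XEN-iPS replicate 1 (-0.14, adjusted p = 0.819) and without iXEN replicate 1 (-2.09, adjusted p = 0.0551), and in 1 other alternative; that of XEN-iPS over XEN, 2.81 ± 0.66 (adjusted p = 0.00196), was lost without XEN-iPS replicate 1 (0.69, adjusted p = 0.196). After thinning each cell to 2000 UMIs, the share of cells with a Gpx2 UMI was 0.611% and 1.16% in XEN and 28.8% and 32.5% at day 7, and without thinning 4.11% and 7.94% against 77.9% and 75.1%. With thinning, 234 and 359 XEN cells and 148 and 174 day 7 cells were too shallow and left out. In the 24h libraries, whose level was near that of XEN, the thinned share was 0.984% and 0.736%, which is near the XEN share and far under that of day 7.

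Gpx6, which is known from the olfactory epithelium, stayed under 1 CPM in every library. It measured 0.0275 and 0.0453 CPM in XEN, 0.156 and 0.159 at day 7, 0.036 and 0.0112 at day 14, 0.316 and 0.635 at day 28, ending at 0.974 and 0.361 in XEN-iPS, and 0.251 and 0.187 CPM in ES, 0.0356 and 0.0191 at 9h, 0.0155 and 0.0651 at 24h, 0.0377 and 0 at 48h, ending at 0.113 and 0.0159 in iXEN, so its levels rest on few UMIs. Its call in ES over XEN, 2.53 ± 0.89 (adjusted p = 0.0241), was lost without XEN replicate 1 (2.28, adjusted p = 0.125), without XEN replicate 2 (2.93, adjusted p = 0.0733) and without ES replicate 1 (2.35, adjusted p = 0.0888), while that between the products was -3.36 ± 0.90 (adjusted p = 0.00525).

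The abundant peroxidases were called in few comparisons. Gpx4, which reduces phospholipid peroxides and guards cells against ferroptosis, measured 951 and 1460 CPM in XEN, 851 and 921 at day 7, 745 and 686 at day 14, 725 and 796 at day 28, ending at 1986 and 2072 in XEN-iPS, and 857 and 932 CPM in ES, 1335 and 1362 at 9h, 851 and 1238 at 24h, 695 and 789 at 48h, ending at 1070 and 986 in iXEN. XEN-iPS was the highest condition and all other libraries lay between 686 and 1460 CPM. No comparison between conditions called it, with -0.43 ± 0.22 (adjusted p = 0.11) in ES over XEN and -0.98 ± 0.22 (adjusted p = 0.00175) in iXEN over XEN-iPS. Gpx1, the cytosolic form, lay between 190.1 and 809.6 CPM and was lower than in XEN at day 7 (-1.01 ± 0.29, adjusted p = 0.0175) and day 14 (-1.33 ± 0.29, adjusted p = 0.00393). The call at day 7 was lost in 9 of 14 alternatives (-1.19 to -0.84), and that at day 14 was lost without day 14 replicate 2 (-1.06, adjusted p = 0.0655).

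Among the transferases, 8 were higher in the pluripotent cells of both pairs: Gsta3, Gsta4, Gstm3, Gstp2, Gstp3, Gstt1, Gstt2 and Gstt4. Gsta3 (chromosome 1, 21240589 to 21265661), an alpha-class enzyme, measured 0.0825 and 0.109 CPM in XEN, 0.067 and 0.379 at day 7, 0.557 and 0.168 at day 14, 6.57 and 6.68 at day 28, ending at 11.1 and 24.9 in XEN-iPS, and 7.25 and 8.94 CPM in ES, 9.98 and 10.3 at 9h, 1.01 and 1.09 at 24h, 0.716 and 0.535 at 48h, ending at 0.323 and 0.286 in iXEN. Its library sums were near 0 in XEN, day 7 and day 14, came close under the ES level at day 28, and fell within the first day of Gata4 induction. The day 28 sums mix endoderm-side cells at 0.334 and 0.428 CPM with pluripotent-side cells at 23.6 and 19.3 CPM, described below. On the log2 scale Gsta3 changed by 6.38 ± 0.65 (adjusted p = 8.87e-07) for ES over XEN, -5.88 ± 0.62 (adjusted p = 2.15e-06) for iXEN over XEN-iPS and -2.95 ± 0.53 (adjusted p = 0.00172) for 24h over ES.

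Gsta4 (chromosome 9, 78182774 to 78209349), which conjugates the lipid peroxidation product hydroxynonenal, was the most abundant of the 8. It measured 47.8 and 76.4 CPM in XEN, 129 and 105 at day 7, 82 and 104 at day 14, 114 and 97.5 at day 28, ending at 221 and 208 in XEN-iPS, and 190.2 and 193 CPM in ES, 208 and 205 at 9h, 75.1 and 107 at 24h, 40.7 and 25.9 at 48h, ending at 65.5 and 30.6 in iXEN. ES, 9h and XEN-iPS libraries were all above the others, and the 3 lowest libraries were both of 48h and iXEN replicate 2. Gsta4 gave log2 fold changes of 1.62 ± 0.33 (adjusted p = 0.000659) for ES over XEN, -2.16 ± 0.34 (adjusted p = 8.02e-05) for iXEN over XEN-iPS and -2.52 ± 0.34 (adjusted p = 4.29e-05) for 48h over ES.

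The pi-class genes Gstp1, Gstp2 and Gstp3 lie side by side on chromosome 19 (4035407 to 4059569). Their promoter windows are printed because Gstp2 and Gstp3 were called in both pairs and Gstp1 in no comparison. That of Prdx1 is added since it holds the same motif as Gstp1 and Gstp2, TGANTCAGC in capitals (GCTGAGTCA where it lies on the opposite strand). The window of Gstp2 lies within that gene's annotated span (4040285 to 4046023), downstream of its outermost start, and the others lie partly within theirs. These windows are at chr19:4037863-4038162, minus strand, at chr19:4042172-4042471, minus strand, at chr19:4059398-4059697, minus strand and at chr4:116685349-116685648, plus strand.
Gstp1: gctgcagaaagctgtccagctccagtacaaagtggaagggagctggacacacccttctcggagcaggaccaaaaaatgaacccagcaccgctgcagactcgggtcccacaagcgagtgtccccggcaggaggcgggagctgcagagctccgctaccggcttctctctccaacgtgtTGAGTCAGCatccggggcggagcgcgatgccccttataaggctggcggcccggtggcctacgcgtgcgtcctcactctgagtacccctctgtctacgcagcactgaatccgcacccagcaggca
Gstp2: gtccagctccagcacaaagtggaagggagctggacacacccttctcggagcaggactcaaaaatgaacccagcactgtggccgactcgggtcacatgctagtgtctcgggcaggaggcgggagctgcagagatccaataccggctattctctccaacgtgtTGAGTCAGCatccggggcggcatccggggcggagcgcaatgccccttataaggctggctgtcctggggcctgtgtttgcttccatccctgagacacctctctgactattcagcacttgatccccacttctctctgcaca
Gstp3: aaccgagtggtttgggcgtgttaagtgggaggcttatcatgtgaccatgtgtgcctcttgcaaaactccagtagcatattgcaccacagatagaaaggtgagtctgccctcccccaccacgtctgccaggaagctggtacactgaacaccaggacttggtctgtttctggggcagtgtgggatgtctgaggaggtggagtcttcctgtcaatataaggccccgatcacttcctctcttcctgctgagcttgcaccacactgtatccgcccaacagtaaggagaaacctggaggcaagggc
Prdx1: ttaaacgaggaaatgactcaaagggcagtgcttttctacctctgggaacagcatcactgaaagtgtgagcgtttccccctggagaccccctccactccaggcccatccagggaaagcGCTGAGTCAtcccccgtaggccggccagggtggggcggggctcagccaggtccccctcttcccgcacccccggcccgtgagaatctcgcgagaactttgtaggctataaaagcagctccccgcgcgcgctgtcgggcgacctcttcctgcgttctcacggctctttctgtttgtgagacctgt
The motif, searched on both strands in the 53 members with a RefSeq promoter, was found in Gstp1, Gstp2 and Prdx1, at positions -74, -89 and -133 from the start site, and in 1.19% of all promoters. Its matches can overlap those of the shorter TGACTCA, which was found in 5 members and in 5.2% of all promoters. The looser TGACNNNGC was found in 10 members and 12.4% of all promoters, and the letters AGATAA and TGATAA in 3 and 5 members, beside 11.2% and 9.05%. The windows of Gstp1 and Gstp2 were identical at 77.1% of aligned columns and those of Gstp1 and Gstp3 at 52.3%. The genes themselves are close paralogs, so that the split of reads between Gstp1 and Gstp2 is uncertain.

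Gstp3 measured 0.165 and 0.181 CPM in XEN, 0.625 and 0.513 at day 7, 1.71 and 1.29 at day 14, 16.4 and 16.9 at day 28, ending at 66.5 and 31.7 in XEN-iPS, and 3.61 and 4.27 CPM in ES, 9.36 and 9.27 at 9h, 1.35 and 3.73 at 24h, 0.678 and 1.02 at 48h, ending at 0.42 and 0.318 in iXEN. It rose at each step to XEN-iPS with no overlap between neighbouring steps, peaked at 9h in the other direction and was lowest in iXEN. The fit put Gstp3 at 4.50 ± 0.48 (adjusted p = 1.4e-06) for ES over XEN and -7.05 ± 0.51 (adjusted p = 9.52e-08) for iXEN over XEN-iPS in log2 units.

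Gstp2 measured 0.0734 and 0.254 CPM in XEN, 11.3 and 4.37 at day 7, 21.3 and 10.9 at day 14, 10.8 and 72.6 at day 28, ending at 46.1 and 26.8 in XEN-iPS, and 0.656 and 2.86 CPM in ES, 5.98 and 4.24 at 9h, 3.71 and 3.73 at 24h, 3.35 and 1.17 at 48h, ending at 0.0646 and 0.0794 in iXEN. It was under 1 CPM in all XEN and iXEN libraries and above 4 CPM from day 7 onward. The log2 fold change was -8.95 ± 1.20 (adjusted p = 2.04e-05) in iXEN over XEN-iPS, and 3.42 ± 0.95 (adjusted p = 0.00637) in ES over XEN, a call lost without XEN replicate 1 (2.84, adjusted p = 0.0629) and without ES replicate 2 (2.05, adjusted p = 0.115). Gstp1 measured 7.83 and 46.8 CPM in XEN, 99.7 and 33.1 at day 7, 139 and 69.1 at day 14, 27.1 and 158 at day 28, ending at 57.8 and 36.9 in XEN-iPS, and 3.99 and 18.8 CPM in ES, 29 and 19.3 at 9h, 19.8 and 18.6 at 24h, 23.1 and 17.6 at 48h, ending at 21.4 and 14.2 in iXEN, and no comparison called it.

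The duplicates of Gstp1 and Gstp2 were far apart in several conditions. Replicate 2 of Gstp1 was higher by 5.97-fold in XEN, 5.82-fold at day 28 and 4.69-fold in ES, the 3 conditions of project number 1, and replicate 1 was higher by 3.01-fold at day 7, 2.01-fold at day 14 and 1.5-fold in iXEN, of project number 2. Gstp2 gave 3.46-, 6.74- and 4.37-fold in the conditions of project number 1, and Gstp3 gave 1.10-, 1.03- and 1.18-fold there. Whether a project number stands for a run is not given in the sources used here, and its part in these levels was not tested.

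**Figure D3:**
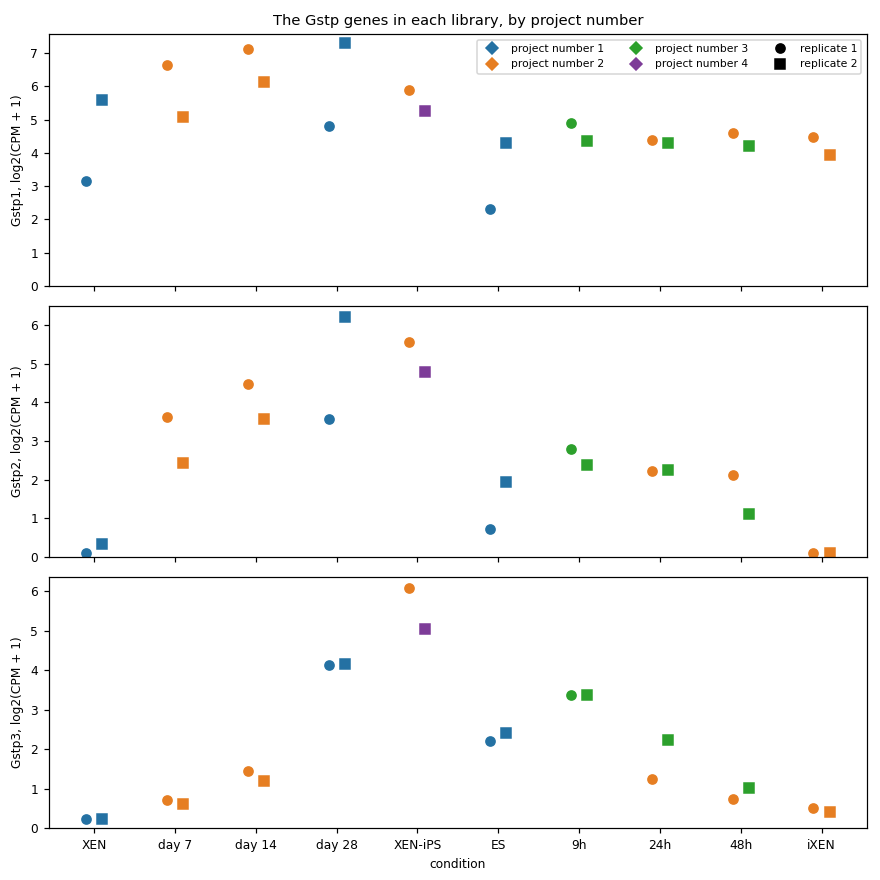
Gstp1, Gstp2 and Gstp3 in each library, on a log2(CPM + 1) axis; circles are replicate 1, squares replicate 2, and colours the project number in the deposited names. In XEN, day 28 and ES, all of project number 1, the square lies above the circle for Gstp1 and Gstp2, by little for Gstp2 in XEN, where both points are near 0, whereas the points of Gstp3 lie close together.

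The 7 mu-class genes form a cluster on chromosome 3 (107895821 to 108044894). Of these, 6 were called higher at day 28 than in XEN (all but Gstm5), beside 21.6% of all genes. At 48h 6 were called higher than in ES (all but Gstm3), beside 18.0% of all genes. The class was not tested as a set. Gstm3 measured 0.00917 and 0.00906 CPM in XEN, 0.0223 and 0.0489 at day 7, 0.018 and 0.0674 at day 14, 1.52 and 2.87 at day 28, ending at 4.41 and 3.14 in XEN-iPS, and 0.318 and 0.211 CPM in ES, 0.0267 and 0.0668 at 9h, 0.124 and 0.228 at 24h, 0.132 and 0.0747 at 48h, ending at 0 and 0.0953 in iXEN. It was near 0 in XEN and iXEN and highest at day 28 and in XEN-iPS. With 2 UMIs in XEN against 59 in ES the ratio was 28.5 (95% counting interval 7.56 to 241; adjusted p = 0.000775), and between the products the log2 fold change was -6.26 ± 0.86 (adjusted p = 2.51e-05). At 48h over ES it was -1.38 ± 0.76 (adjusted p = 0.159), not called. Gstm1 lay between 4.16 and 41.5 CPM, Gstm2 between 1.74 and 29.3 CPM and Gstm4 between 1.34 and 11.1 CPM. Gstm1 (1.5 ± 0.38, adjusted p = 0.00341) and Gstm4 (1.71 ± 0.30, adjusted p = 0.000176) were called higher in ES than in XEN, as was Gstm6 (2.33 ± 0.66, adjusted p = 0.00745), a call lost without XEN replicate 1 (1.74, adjusted p = 0.0758). At day 28 Gstm1, Gstm2, Gstm4, Gstm6 and Gstm7 were also called higher than in XEN, with log2 fold changes of 2.46 ± 0.39 (adjusted p = 0.000185), 2.35 ± 0.51 (adjusted p = 0.00197), 2.32 ± 0.30 (adjusted p = 3.92e-05), 4.58 ± 0.69 (adjusted p = 0.000125) and 1.12 ± 0.34 (adjusted p = 0.0174); the last call was lost without XEN replicate 1 (0.93, adjusted p = 0.123) and without day 28 replicate 1 (0.99, adjusted p = 0.0996). At 48h over ES the same 5 genes and Gstm5 were called higher, between 1.11 ± 0.29 (adjusted p = 0.00713) for Gstm4, lost without ES replicate 1 (1.04, adjusted p = 0.057) and without ES replicate 2 (1.01, adjusted p = 0.06), and 3.10 ± 0.52 (adjusted p = 0.000271) for Gstm2; the call of Gstm1, 1.35 ± 0.38 (adjusted p = 0.00982), was lost without ES replicate 1 (1.11, adjusted p = 0.111) and without 48h replicate 2 (1.0, adjusted p = 0.107).

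Gstm5, at the end of the cluster and on the opposite strand, was the mu-class gene called lower in ES than in XEN. Its libraries held 24.6 and 44.9 CPM in XEN, 17 and 37.7 at day 7, 32.6 and 28.3 at day 14, 42.3 and 34.4 at day 28, ending at 12 and 16.2 in XEN-iPS, and 7.61 and 8.82 CPM in ES, 12.4 and 11.9 at 9h, 10.7 and 10.1 at 24h, 24.2 and 23 at 48h, ending at 19.9 and 27.2 in iXEN. ES, 9h, 24h and XEN-iPS libraries were the lowest, and XEN libraries were above those of ES without overlap. The log2 fold change was -2.08 ± 0.34 (adjusted p = 9.17e-05) in ES over XEN and 0.74 ± 0.33 (adjusted p = 0.0699), not called, in iXEN over XEN-iPS. It was 0.14 ± 0.32 (adjusted p = 0.753), not called, at day 28 over XEN and 1.52 ± 0.33 (adjusted p = 0.00211) at 48h over ES, where the libraries did not overlap. In XEN-iPS over XEN it was -1.30 ± 0.33 (adjusted p = 0.00357), a call lost without XEN replicate 2 (-0.76, adjusted p = 0.0828), and in 1 other alternative. Gstm7 measured 0.66 and 0.96 CPM in XEN, 0.603 and 0.489 at day 7, 0.683 and 0.741 at day 14, 1.94 and 1.58 at day 28, ending at 1.21 and 1.39 in XEN-iPS, and 1.28 and 1.14 CPM in ES, 1.68 and 1.78 at 9h, 2.86 and 3.9 at 24h, 6.11 and 7.6 at 48h, ending at 3.04 and 1.75 in iXEN, and its highest libraries were those of 48h, at 2.50 ± 0.35 (adjusted p = 5.99e-05) over ES.

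The 4 theta-class genes lie together on chromosome 10 (75774115 to 75837424). Gstt2 measured 0.422 and 0.924 CPM in XEN, 3.26 and 5.68 at day 7, 3.43 and 3.84 at day 14, 5.79 and 5.31 at day 28, ending at 5.08 and 8.43 in XEN-iPS, and 8.15 and 7.69 CPM in ES, 6.58 and 6.08 at 9h, 5.63 and 11.4 at 24h, 11.4 and 6.47 at 48h, ending at 1.6 and 0.874 in iXEN. Only XEN and iXEN libraries lay under 2 CPM. On the log2 scale Gstt2 changed by 3.55 ± 0.48 (adjusted p = 1.65e-05) for ES over XEN and -2.45 ± 0.47 (adjusted p = 0.000435) for iXEN over XEN-iPS.

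Gstt1 measured 0.11 and 0.127 CPM in XEN, 0.134 and 0.379 at day 7, 0.27 and 0.898 at day 14, 0.352 and 0.536 at day 28, ending at 1.11 and 1.43 in XEN-iPS, and 0.502 and 0.463 CPM in ES, 0.631 and 0.602 at 9h, 1.35 and 2.93 at 24h, 2.79 and 0.847 at 48h, ending at 0.178 and 0.365 in iXEN, and 1 library each of 24h and 48h held the highest values. Its call in ES over XEN, 2.01 ± 0.71 (adjusted p = 0.0241), was lost without XEN replicate 1 (1.97, adjusted p = 0.104), without XEN replicate 2 (2.13, adjusted p = 0.0835), without ES replicate 1 (1.99, adjusted p = 0.0651) and without ES replicate 2 (2.12, adjusted p = 0.0501), and that between the products, -2.22 ± 0.70 (adjusted p = 0.014), was lost without iXEN replicate 1 (-1.93, adjusted p = 0.0793), and in 1 other alternative. Gstt4 stayed under 1 CPM: 0 and 0 CPM in XEN, 0 and 0 at day 7, 0.018 and 0 at day 14, 0.0541 and 0.0565 at day 28, ending at 0.793 and 0.171 in XEN-iPS, and 0.116 and 0.0162 CPM in ES, 0.00889 and 0.0191 at 9h, 0.0464 and 0 at 24h, 0.0188 and 0.0124 at 48h, ending at 0 and 0 in iXEN. It had 0 UMIs in XEN against 14 in ES, at least 4.51-fold more, a call lost without XEN replicate 1 (5.43, adjusted p = 0.0934), without XEN replicate 2 (5.43, adjusted p = 0.0992) and without ES replicate 1 (3.54, adjusted p = 0.204), and 0 in iXEN against 66 in XEN-iPS, at least 22.1-fold more in XEN-iPS.

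Gstt3, their neighbour, was called higher in ES than in XEN and also higher in iXEN than in XEN-iPS. It measured 1.57 and 2.92 CPM in XEN, 3.17 and 3.05 at day 7, 2.5 and 4.28 at day 14, 4.36 and 2.96 at day 28, ending at 1.21 and 4.68 in XEN-iPS, and 5.62 and 5.56 CPM in ES, 7.78 and 7.35 at 9h, 7.1 and 10.0 at 24h, 13.8 and 13.5 at 48h, ending at 8.41 and 6.04 in iXEN. Every ES-to-iXEN library was above every XEN-to-iPS library. The log2 fold change was 1.32 ± 0.47 (adjusted p = 0.0261) in ES over XEN, lost without XEN replicate 1 (0.99, adjusted p = 0.176), without ES replicate 1 (1.36, adjusted p = 0.0633) and without ES replicate 2 (1.39, adjusted p = 0.0576), and 1.30 ± 0.47 (adjusted p = 0.0294) in iXEN over XEN-iPS, lost without XEN-iPS replicate 1 (0.50, adjusted p = 0.323), without iXEN replicate 1 (0.91, adjusted p = 0.191) and without iXEN replicate 2 (1.40, adjusted p = 0.051), and in 3 other alternatives.

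A further 4 transferases were higher in the endoderm cells of both pairs. Mgst3 (chromosome 1, 167371966 to 167393841), a microsomal enzyme with glutathione transferase and peroxidase activity, measured 76.8 and 141 CPM in XEN, 207 and 287 at day 7, 524 and 322 at day 14, 545 and 448 at day 28, ending at 22.7 and 25.1 in XEN-iPS, and 24.3 and 29 CPM in ES, 33.2 and 36.5 at 9h, 90.6 and 139 at 24h, 442 and 635 at 48h, ending at 100.3 and 124 in iXEN. Its libraries did not overlap in either pair, but the levels at days 14 and 28 and at 48h were above those of both XEN and iXEN. Mgst3 gave log2 fold changes of -2.03 ± 0.33 (adjusted p = 8.51e-05) for ES over XEN, 2.23 ± 0.33 (adjusted p = 5.14e-05) for iXEN over XEN-iPS, 2.19 ± 0.33 (adjusted p = 0.000123) for day 28 over XEN and 4.34 ± 0.36 (adjusted p = 5.71e-07) for 48h over ES. After thinning, 4.98% and 5.35% of ES cells and 51.7% and 67.5% of 48h cells had a Mgst3 UMI, and 27.1% and 29.7% against 87.3% and 96.6% without thinning; 183 and 158 ES cells and 310 and 681 cells at 48h were too shallow to thin.

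Mgst2 (chromosome 3, 51660360 to 51682677), a microsomal enzyme able to make leukotrienes, shared this shape at a lower level. Its libraries gave 1.96 and 2.04 CPM in XEN, 2.61 and 3.08 at day 7, 8.45 and 8.68 at day 14, 21.5 and 24 at day 28, ending at 0.779 and 0.381 in XEN-iPS, and 0.183 and 0.105 CPM in ES, 0.151 and 0.258 at 9h, 2.46 and 1.79 at 24h, 9.31 and 16.6 at 48h, ending at 3.41 and 8.05 in iXEN. Day 28 was higher than every other condition, and ES, 9h and XEN-iPS libraries were all under 1 CPM. The fit put Mgst2 at -3.79 ± 0.49 (adjusted p = 1.02e-05) for ES over XEN, 3.28 ± 0.46 (adjusted p = 2.83e-05) for iXEN over XEN-iPS, 3.51 ± 0.44 (adjusted p = 2.66e-05) for day 28 over XEN and 6.49 ± 0.53 (adjusted p = 4.78e-07) for 48h over ES in log2 units.

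Gsta1 measured 2.93 and 3.9 CPM in XEN, 0.603 and 0.318 at day 7, 2.53 and 1.3 at day 14, 1.47 and 1.57 at day 28, ending at 0.0556 and 0.019 in XEN-iPS, and 0 and 0 CPM in ES, 0 and 0 at 9h, 0 and 0 at 24h, 0.0188 and 0.0374 at 48h, ending at 1.07 and 1.67 in iXEN. It had no UMI in ES, 9h and 24h, and the iXEN libraries lay under those of XEN. With 749 UMIs in XEN and 0 in ES, it was at least 258-fold lower in ES (adjusted p = 8.34e-07), and iXEN over XEN-iPS gave 5.06 ± 0.67 (adjusted p = 4.85e-05). Gsta1 and its neighbour Gsta2 are close copies, so that their counts are uncertain.

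The omega-class genes Gsto1 and Gsto2, which also reduce dehydroascorbate, lie next to each other on chromosome 19 (47854970 to 47886324). Gsto2 measured 0.862 and 1.65 CPM in XEN, 1.5 and 1.23 at day 7, 0.863 and 1.19 at day 14, 1.09 and 1.43 at day 28, ending at 0.71 and 0.951 in XEN-iPS, and 0.367 and 0.3 CPM in ES, 0.694 and 0.659 at 9h, 1.21 and 0.993 at 24h, 2.9 and 2.7 at 48h, ending at 1.45 and 2.52 in iXEN. ES was the lowest condition and 48h the highest, and the libraries did not overlap in either pair. The log2 fold change was -1.91 ± 0.41 (adjusted p = 0.00109) in ES over XEN and 1.26 ± 0.41 (adjusted p = 0.0159) in iXEN over XEN-iPS, a call lost without XEN-iPS replicate 1 (0.93, adjusted p = 0.133) and without iXEN replicate 2 (0.68, adjusted p = 0.236), and in 3 other alternatives, among them that with no cluster removed, where it turned to -0.92; the fibroblast-type cells of XEN-iPS replicate 2 held 16.7 CPM against 1.1 in its kept cells, both over the cells' own total. Gsto1 was much more abundant, between 28.7 and 346 CPM, and was called in ES over XEN (-2.21 ± 0.39, adjusted p = 0.000182) but not in iXEN over XEN-iPS (0.84 ± 0.37, adjusted p = 0.0709). Gsto1 was also lower than in XEN at day 14 (-2.11 ± 0.39, adjusted p = 0.00123), at day 28 (-1.89 ± 0.38, adjusted p = 0.0013) and in XEN-iPS (-1.95 ± 0.39, adjusted p = 0.000501), the last call lost with no cluster removed (-0.59, adjusted p = 0.314). Its calls at day 7 over XEN (-1.19 ± 0.38, adjusted p = 0.0305) and in iXEN over ES (1.09 ± 0.38, adjusted p = 0.0224) were each lost in several alternatives (-1.73 to -0.30 and 0.67 to 1.24).

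The thioredoxin-domain proteins that were called in both pairs, Txndc5, Txndc11, Txndc12 and Txndc16, are known residents of the endoplasmic reticulum, where Txndc5 and Txndc12 act on disulfide bonds of folding proteins. Txndc12 (chromosome 4, 108834601 to 108862127) measured 303 and 361 CPM in XEN, 248 and 239.8 at day 7, 316 and 251 at day 14, 252 and 230.2 at day 28, ending at 30.9 and 20.9 in XEN-iPS, and 21.9 and 20.1 CPM in ES, 54.4 and 52 at 9h, 41.8 and 67.5 at 24h, 104 and 206 at 48h, ending at 282 and 316 in iXEN. In library sums it was at 230.2 CPM or more up to day 28 and low only in XEN-iPS of that conversion. Pluripotent-side cells of day 28, described below, already held 37.2 and 48.7 CPM. Txndc12 was above ES in every library from 9h on. On the log2 scale Txndc12 changed by -3.98 ± 0.33 (adjusted p = 1.27e-07) for ES over XEN and 3.53 ± 0.33 (adjusted p = 6.71e-07) for iXEN over XEN-iPS.

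Txndc5 measured 118 and 103 CPM in XEN, 99.8 and 135 at day 7, 146 and 169 at day 14, 94.1 and 92.9 at day 28, ending at 33.8 and 17.7 in XEN-iPS, and 19.8 and 24.7 CPM in ES, 35.1 and 33.2 at 9h, 38.8 and 31.6 at 24h, 71.8 and 79.8 at 48h, ending at 108 and 144 in iXEN. Its libraries did not overlap in either pair, and the fall in library sums again came between day 28 and XEN-iPS. At day 28 the pluripotent-side cells already held 31.2 and 34.6 CPM, against 138 and 146 on the endoderm side. Txndc5 gave log2 fold changes of -2.32 ± 0.28 (adjusted p = 4.78e-06) for ES over XEN and 2.29 ± 0.28 (adjusted p = 7.66e-06) for iXEN over XEN-iPS.

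Txndc11 measured 64.9 and 44.4 CPM in XEN, 26.9 and 35.1 at day 7, 44 and 41.8 at day 14, 32.2 and 35 at day 28, ending at 13.1 and 11 in XEN-iPS, and 9.1 and 11.1 CPM in ES, 12.7 and 11.8 at 9h, 15 and 10.0 at 24h, 19.6 and 24.7 at 48h, ending at 28.9 and 41.9 in iXEN, with XEN the highest condition and no overlap in either pair. The fit put Txndc11 at -2.44 ± 0.27 (adjusted p = 1.94e-06) for ES over XEN and 1.56 ± 0.26 (adjusted p = 0.000144) for iXEN over XEN-iPS in log2 units. Txndc16 was scarce, at 2.48 and 2.37 CPM in XEN, 2.57 and 3.8 at day 7, 4.31 and 3.36 at day 14, 2.48 and 3.4 at day 28, ending at 1.04 and 0.856 in XEN-iPS, and 1.03 and 1.24 CPM in ES, 1.32 and 0.955 at 9h, 2.04 and 1.82 at 24h, 3.2 and 2.65 at 48h, ending at 3.28 and 4.32 in iXEN. In the fit it gave -1.09 ± 0.32 (adjusted p = 0.00931) and 2.0 ± 0.34 (adjusted p = 0.000152) in the same order of comparisons; the first call was lost without ES replicate 1 (-0.92, adjusted p = 0.0882), and in 3 other alternatives. The second was lost with no cluster removed (0.73).

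Txndc15, by contrast, was highest early in XEN-to-iPS. It measured 29 and 29.5 CPM in XEN, 106 and 99.2 at day 7, 85.5 and 87.3 at day 14, 61.7 and 51 at day 28, ending at 13.6 and 6.45 in XEN-iPS, and 18.5 and 17.5 CPM in ES, 33.3 and 31.8 at 9h, 19.6 and 19.8 at 24h, 21.7 and 29.5 at 48h, ending at 32.5 and 22.7 in iXEN. The libraries of days 7 and 14 were all above 80 CPM and those of XEN under 30 CPM, and XEN-iPS was lowest. It was called at day 7 (1.81 ± 0.28, adjusted p = 0.000391) and day 14 (1.56 ± 0.28, adjusted p = 0.000998) over XEN and not in ES over XEN (-0.70 ± 0.27, adjusted p = 0.0395). XEN-iPS over XEN gave -1.54 ± 0.28 (adjusted p = 0.000238), a call lost with no cluster removed (-0.83, adjusted p = 0.00328), and iXEN over XEN-iPS gave 1.46 ± 0.28 (adjusted p = 0.000453), a call lost without XEN-iPS replicate 2 (0.88, adjusted p = 0.00876), and in 2 other alternatives. Txndc9 lay between 54.9 and 133 CPM, and its only call, 1.03 ± 0.20 (adjusted p = 0.000482) in iXEN over XEN-iPS, was lost in 10 of 15 alternatives (0.75 to 1.06). Txndc17, a small cytosolic disulfide reductase, measured 444 and 622 CPM in XEN, 445 and 474 at day 7, 409 and 352 at day 14, 346 and 315 at day 28, ending at 298 and 215 in XEN-iPS, and 239.9 and 219 CPM in ES, 282 and 289.6 at 9h, 198 and 213 at 24h, 271 and 309.8 at 48h, ending at 213 and 236 in iXEN; XEN had the highest mean. It was called in ES over XEN at -1.22 ± 0.21 (adjusted p = 0.000161), a call lost without XEN replicate 2 (-0.94, adjusted p = 0.00449), and gave -0.19 ± 0.21 (adjusted p = 0.454) between the products, whose libraries overlapped.

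Txnl4a, a component of the spliceosome with a thioredoxin fold, measured 303 and 441 CPM in XEN, 375 and 352 at day 7, 301 and 222 at day 14, 206 and 201 at day 28, ending at 384 and 343 in XEN-iPS, and 389.6 and 344 CPM in ES, 355 and 360 at 9h, 218 and 214 at 24h, 171 and 150.5 at 48h, ending at 148 and 162 in iXEN. XEN and ES libraries overlapped, and the 48h and iXEN libraries were the lowest. It was called in iXEN over XEN-iPS (-1.23 ± 0.21, adjusted p = 0.000175) and not in ES over XEN (-0.02 ± 0.21, adjusted p = 0.948). Txnl1 (between 62 and 265 CPM) and Txnl4b (between 2.44 and 4.88 CPM) were called in no comparison.

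Peroxiredoxins were abundant, and most comparisons did not call them. Prdx1, the main cytosolic form, lay between 521 and 1691 CPM and was higher in ES than in XEN by 1.38 ± 0.33 (adjusted p = 0.00233). It was lower in iXEN than in ES (-1.28 ± 0.33, adjusted p = 0.0042) and at 48h (-1.02 ± 0.33, adjusted p = 0.0219), the latter lost without ES replicate 1 (-1.15, adjusted p = 0.0516), without ES replicate 2 (-1.06, adjusted p = 0.0676), without 48h replicate 1 (-1.09, adjusted p = 0.0731) and without 48h replicate 2 (-1.12, adjusted p = 0.0719). Prdx6, which uses glutathione to reduce phospholipid peroxides, lay between 136 and 239 CPM in all 20 libraries, and no comparison called it; in ES over XEN it gave -0.13 ± 0.23 (adjusted p = 0.645). Prdx2 (between 172 and 775 CPM) was called nowhere, and Prdx4, the form of the endoplasmic reticulum (between 19.5 and 251 CPM), only at day 14 over XEN (1.27 ± 0.45, adjusted p = 0.0481), a call lost without XEN replicate 1 (1.17, adjusted p = 0.209), without XEN replicate 2 (1.35, adjusted p = 0.142), without day 14 replicate 1 (1.46, adjusted p = 0.079) and without day 14 replicate 2 (1.10, adjusted p = 0.216), and in 2 other alternatives.

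Prdx3, the mitochondrial form, measured 47.8 and 53.6 CPM in XEN, 100.5 and 96.2 at day 7, 83.8 and 66.9 at day 14, 74.5 and 72.7 at day 28, ending at 46.8 and 32.8 in XEN-iPS, and 30.4 and 35.1 CPM in ES, 37.7 and 39.8 at 9h, 27.7 and 33.3 at 24h, 36.2 and 39.2 at 48h, ending at 20.1 and 16.9 in iXEN. Days 7 to 28 were above all other libraries and iXEN was the lowest. It was called in iXEN over XEN-iPS at -1.11 ± 0.20 (adjusted p = 0.000313), under the fold threshold without XEN-iPS replicate 1 (-0.95), and not called in ES over XEN (-0.63 ± 0.20, adjusted p = 0.014). Prdx5, found in mitochondria, peroxisomes and cytosol, measured 216 and 297 CPM in XEN, 194 and 202 at day 7, 162 and 180.2 at day 14, 146 and 119.7 at day 28, ending at 222 and 147 in XEN-iPS, and 128 and 114 CPM in ES, 133 and 134 at 9h, 84.7 and 96 at 24h, 70.6 and 74.9 at 48h, ending at 107 and 87.9 in iXEN. XEN had the highest mean and all ES-to-iXEN libraries were under both of its libraries. The log2 fold change was -1.08 ± 0.22 (adjusted p = 0.000758) in ES over XEN, a call lost without XEN replicate 2 (-0.81, adjusted p = 0.0179) and without ES replicate 2 (-0.94, adjusted p = 0.0175), and in 3 other alternatives, and -0.92 ± 0.22 (adjusted p = 0.00276) in iXEN over XEN-iPS.

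The thioredoxins and their reductases were called in few comparisons. Txn1, the cytosolic thioredoxin, measured 733 and 1084 CPM in XEN, 679 and 646 at day 7, 542 and 466 at day 14, 614 and 590 at day 28, ending at 846 and 825 in XEN-iPS, and 783 and 711 CPM in ES, 619 and 673 at 9h, 399.8 and 362 at 24h, 508 and 410 at 48h, ending at 361 and 484 in iXEN. ES and XEN libraries overlapped, and iXEN was under XEN-iPS. It gave -0.28 ± 0.21 (adjusted p = 0.28) in ES over XEN and -0.98 ± 0.22 (adjusted p = 0.0014) in iXEN over XEN-iPS, and no comparison called it. Txnrd2, the mitochondrial reductase, measured 12.1 and 16.6 CPM in XEN, 12.7 and 14.4 at day 7, 11.3 and 10.6 at day 14, 14.4 and 15.2 at day 28, ending at 13.9 and 8.09 in XEN-iPS, and 5.18 and 4.41 CPM in ES, 5.02 and 5.37 at 9h, 3.33 and 4.21 at 24h, 3.11 and 5.62 at 48h, ending at 6.2 and 5.7 in iXEN. Every XEN-to-iPS library was above every ES-to-iXEN library. On the log2 scale Txnrd2 changed by -1.58 ± 0.30 (adjusted p = 0.000332) for ES over XEN and -0.89 ± 0.29 (adjusted p = 0.0186) for iXEN over XEN-iPS.

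Txnrd1, the cytosolic reductase, lay between 42.1 and 168 CPM and was called lower at day 28 than in XEN (-1.12 ± 0.28, adjusted p = 0.00567), a call lost without day 28 replicate 2 (-0.89, adjusted p = 0.0785). Txn2, the mitochondrial thioredoxin, lay between 89 and 258 CPM and was called lower in iXEN than in ES (-1.07 ± 0.20, adjusted p = 0.000374). Txnip, which binds thioredoxin, lay between 2.25 and 83.8 CPM, varied widely between duplicates (2.25 and 12.3 CPM at day 7, 16.9 and 83.8 CPM at 24h) and was called in XEN-iPS over XEN (2.18 ± 0.75, adjusted p = 0.0213), a call lost without XEN replicate 1 (1.85, adjusted p = 0.137) and without XEN-iPS replicate 1 (1.69, adjusted p = 0.103).

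Of the 6 genes of synthesis and recycling counted with Nqo1 and Hmox1, Nqo1 was the one called in both pairs. Nqo1 (chromosome 8, 107388225 to 107403206), a quinone reductase, measured 0.266 and 0.399 CPM in XEN, 1.88 and 1.36 at day 7, 2.57 and 2.83 at day 14, 13.1 and 11.2 at day 28, ending at 14.7 and 7.61 in XEN-iPS, and 11.3 and 15.3 CPM in ES, 9.66 and 9.57 at 9h, 12.3 and 7.88 at 24h, 7.03 and 2.78 at 48h, ending at 3.29 and 1.87 in iXEN. XEN libraries were under 1 CPM, day 28 library sums were already within the range of XEN-iPS and ES, and iXEN sums did not return to the XEN level. Those day 28 sums mix endoderm-side cells at 7.67 and 4.06 CPM with pluripotent-side cells at 22.4 and 23.3 CPM. The iXEN sums are mixed as well, as given with Gpx7, and the part of this in their Nqo1 level was not tested. Nqo1 gave log2 fold changes of 5.32 ± 0.51 (adjusted p = 5.09e-07) for ES over XEN, -2.11 ± 0.43 (adjusted p = 0.000822) for iXEN over XEN-iPS and 5.19 ± 0.51 (adjusted p = 2.67e-06) for day 28 over XEN.

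Gclc measured 25.5 and 16.7 CPM in XEN, 14 and 8.0 at day 7, 17.5 and 13.1 at day 14, 14 and 11.8 at day 28, ending at 15.3 and 11.5 in XEN-iPS, and 19.8 and 27.7 CPM in ES, 11.4 and 12.4 at 9h, 27 and 18.6 at 24h, 14.5 and 9.64 at 48h, ending at 24.3 and 53.7 in iXEN. XEN and ES libraries overlapped, and iXEN replicate 2 was above all other libraries. It was called in iXEN over XEN-iPS (1.54 ± 0.38, adjusted p = 0.00308), lost without iXEN replicate 2 (0.73, adjusted p = 0.146), and not in ES over XEN (0.17 ± 0.37, adjusted p = 0.716). The same iXEN library was the higher of its pair for Gclm (33.3 and 78.9 CPM) and, by 4.88-fold, for Hmox1 (55.6 and 271 CPM), the enzyme of heme breakdown. It was the lower of its pair for the other genes of this group, Gss (13.4 and 7.97 CPM), Gsr (41.7 and 28.5 CPM) and Nqo1 (3.29 and 1.87 CPM). The call of Hmox1 between the products, 1.60 ± 0.61 (adjusted p = 0.0362), was lost without XEN-iPS replicate 2 (0.81, adjusted p = 0.305) and without iXEN replicate 2 (-0.09, adjusted p = 0.917), and in 6 other alternatives. Gclm lay between 17.2 and 78.9 CPM with no call, and Hmox1 between 23.6 and 271 CPM. Gsr, glutathione reductase, lay between 28.5 and 85.3 CPM. It changed from ES to iXEN by -1.14 ± 0.25 (adjusted p = 0.00124), under the fold threshold without iXEN replicate 2 (-0.99), and Gss lay between 3.64 and 18.2 CPM with no call.

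The second question was when along each conversion these genes changed. Against XEN, 12 members were called at day 7 (9 higher, 3 lower, beside 18.4% of all genes, 11.6% higher and 6.87% lower), 17 at day 14 (15 higher, 2 lower, beside 18.5%, 12.6% and 5.88%), 21 at day 28 (19 higher, 2 lower, beside 30.6%, 21.6% and 8.97%) and 32 in XEN-iPS (19 higher, 13 lower, beside 46.5%, 26.0% and 20.5%). As shares of the 58 these counts are 20.7%, 29.3%, 36.2% and 55.2%. The medians of the members were 0.39, 0.22, 0.34 and 0.11 on the log2 scale, beside -0.01, 0.01, 0.08 and 0 over all genes. At day 28, whose project number was that of XEN, 15 of the 19 higher calls were transferases. With RLE scaling the members' values in XEN-iPS over XEN shifted by a median of 0.20. The lower calls were few before XEN-iPS and moved with single libraries: 1 without day 7 replicate 2 at day 7, 4 without XEN replicate 1 and 1 without day 14 replicate 2 at day 14, and 4 without XEN replicate 1 and 1 without day 28 replicate 2 at day 28. In XEN-iPS over XEN 6 were lower with no cluster removed. No thioredoxin-domain protein was called lower before XEN-iPS, where 6 of 10 were. Of those 6 calls that of Txndc17 was lost in 9 of 14 alternatives (-1.24 to -0.75), among them without XEN replicate 2 (-0.75, adjusted p = 0.0169) and without XEN-iPS replicate 2 (-0.75, adjusted p = 0.0116). With no cluster removed, Txndc16 (-0.16, adjusted p = 0.771) and Txndc15 (-0.83, adjusted p = 0.00328) were also lost, and with only the compared libraries Txndc16 (-1.26, adjusted p = 0.0985) was, so 3 of the 6 were called in every alternative.

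Against ES, 1 member was called at 9h (1.72%, beside 5.72% of all genes, 2.65% higher and 3.07% lower), 11 at 24h (8 higher, 3 lower, beside 11.6%, 7.7% and 3.85%), 26 at 48h (18 higher, 8 lower, beside 31.1%, 18.0% and 13.2%; 11 higher without ES replicate 1, 5 lower without 48h replicate 2) and 27 in iXEN (14 higher, 13 lower, beside 44.8%, 25.2% and 19.6%). The single call at 9h was Txndc12 (1.34 ± 0.30, adjusted p = 0.0145), lost without ES replicate 1 (1.40), without ES replicate 2 (1.26), without 9h replicate 1 (1.30) and without 9h replicate 2 (1.36). In the reported fit 15 of 58 members passed an unadjusted p of 0.05 at 9h, near the share of all genes, 3908 of 16718. DESeq2 called 4 members. At 24h the calls came to 12 without the filter on low counts and to 7 with no cluster removed; they came to 6 without ES replicate 1, 5 without ES replicate 2 and 6 without 24h replicate 2, with 4, 3 and 4 higher. The 48h duplicates stood apart in cell state, with 15 endoderm markers summing to 3445 CPM in replicate 1 and 5718 CPM in replicate 2. From 24h to 48h, a step whose conditions both hold libraries of project numbers 2 and 3, 13 members were called, 11 higher and 2 lower. This is 22.4% beside 8.89% of all genes (5.26% higher, 3.64% lower). With the project number as a block the count of 13 became 16, and it was lower without 24h replicate 1, without 24h replicate 2 and without 48h replicate 2. The highest of these were Gstm2 (2.68 ± 0.51, adjusted p = 0.00423), lost without 24h replicate 1 (2.38, adjusted p = 0.057), Mgst2 (2.61 ± 0.43, adjusted p = 0.00153), Gpx8 (2.27 ± 0.38, adjusted p = 0.00181), Gstm6 (2.27 ± 0.61, adjusted p = 0.0262), lost without 24h replicate 1 (2.02, adjusted p = 0.172), without 24h replicate 2 (2.52, adjusted p = 0.118) and without 48h replicate 2 (1.80, adjusted p = 0.211), and in 2 other alternatives, and Mgst3 (2.23 ± 0.33, adjusted p = 0.000796).

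**Figure D4:**
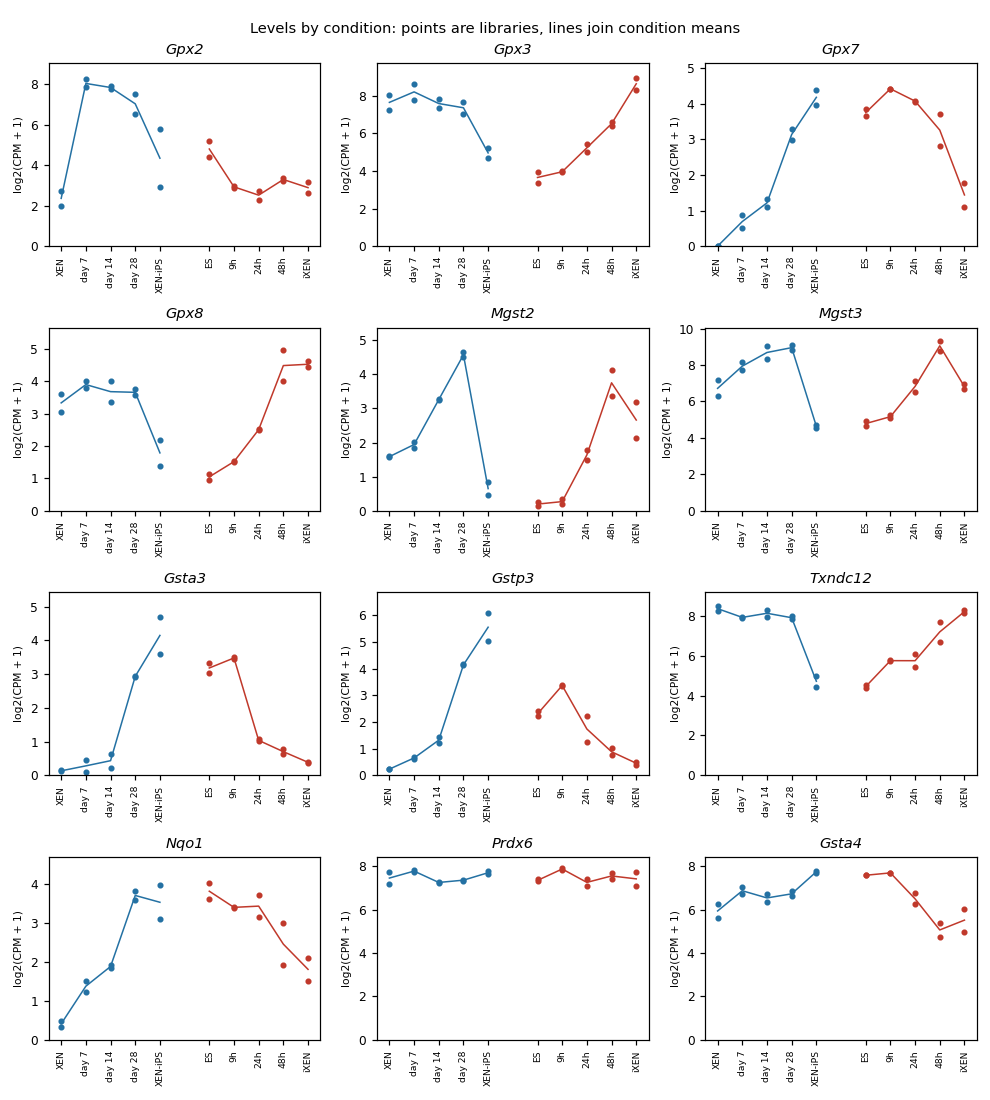
Levels of 12 members on a log2(CPM + 1) axis, XEN-to-iPS in blue and ES-to-iXEN in red; points are libraries and lines join the means of the 2 libraries of a condition. In these library sums along XEN-to-iPS, Gpx3, Gpx8 and Txndc12 are clearly lower only in XEN-iPS. Gpx7, Gsta3, Gstp3 and Nqo1 have climbed by day 28, and Gpx2, Mgst2 and Mgst3 peak between the ends. Prdx6 stays near the same level in both conversions. The day 28 points mix cells of both sides.

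Levels outside the range of both ends occurred in these families at shares not far from those of all genes. In XEN-to-iPS, 17 of 58 members (29.3%, beside 23.8% of all genes) had a step whose 2 libraries were above every library of XEN and XEN-iPS, and 8 (13.8% beside 19.4%) had a step below. In ES-to-iXEN, 22 (37.9% beside 31.7%) had a step above and 17 (29.3% beside 27.0%) a step below. The widest margins, from the lower library of the step to the highest of the ends, were 10.6-fold for Mgst2, 4.25-fold for Gpx2, 3.36-fold for Txndc15 and 3.17-fold for Mgst3 in XEN-to-iPS, and 3.57-fold for Mgst3, 2.68-fold for Gstt1 and 2.17-fold for Gstp3 in ES-to-iXEN. Gsta2, under 2 CPM in every library, had a margin of 3.55-fold at day 28. Gstm4, Gstm7, Mgst2, Mgst3, Prdx3 and Txnl1 had such a step in both directions.

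The day 28 libraries mix cells at different stages, which allowed the same genes to be read in cells that shared medium, doxycycline and library. Each cell was placed between XEN and ES by 100 XEN and 100 ES genes, none of them of these families, after thinning to 2000 UMIs, which left out 240 and 84 shallower cells; cells with an ES share under 0.2 were called endoderm-side and cells over 0.8 pluripotent-side. The first library gave 2480 and 844 such cells and the second 950 and 407, with median UMIs of 16535.5 and 31449.5 in the first and 27027.5 and 52895 in the second. Values on either side are given as a description, without a test. They are over the cells' own total and without TMM, unlike the library values they are set beside.

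All 10 members that were higher in the endoderm cells of both pairs were higher on the endoderm side without overlap over both libraries. The same held for 91.5% of all genes of that class once the genes that define the sides are left out. Mgst3 measured 641 and 629 CPM on the endoderm side and 55.5 and 77.1 CPM on the pluripotent side. Mgst2 gave 36 and 47.7 CPM against 1.42 and 2.71 in the same order, Gpx8 17.4 and 18.5 CPM against 1.13 and 1.36, and Txndc12 395 and 388 CPM against 37.2 and 48.7. On the endoderm side Mgst2 and Mgst3 exceeded every XEN library, and for Gpx3 the pluripotent-side cells lay near XEN-iPS (296 and 171 CPM against 24.8 and 23.2).

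Of the 12 members that were higher in the pluripotent cells of both pairs, 8 were higher on the pluripotent side in both libraries and 4 overlapped: Gpx2, Gstp2, Gstt1 and Gstt2. By that rule without overlap, these 8 are 66.7% of the 12, beside 90.7% of all genes of that class. Over all tested members 36.2% were higher on the endoderm side and 43.1% on the pluripotent side, beside 35.9% and 41.3% of all genes. Gsta3 measured 0.334 and 0.428 CPM on the endoderm side and 23.6 and 19.3 CPM on the pluripotent side. Gstp3 gave 1.87 and 1.07 CPM against 46.8 and 46.4 in the same order, Gpx7 2.88 and 3.14 CPM against 12.4 and 17.2, and Nqo1 7.67 and 4.06 CPM against 22.4 and 23.3. For Gpx2 the sides overlapped, at 107 and 60.4 CPM against 67.4 and 68.4, and both lay above 60 CPM beside at most 5.56 in XEN.

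Some members that no comparison of conditions called were apart between the sides in both libraries. Among them Prdx6, Txn1 and Gss were higher on the pluripotent side, and Prdx2 and Txnl4b on the endoderm side. Prdx2 held 632 and 435 CPM on the endoderm side and 403 and 407 CPM on the pluripotent side. Prdx6 measured 105 and 90.4 CPM on the endoderm side and 303 and 275 CPM on the pluripotent side. Txn1 gave 532 and 415 CPM against 874 and 980.4 in the same order and Gss 11.2 and 8.02 CPM against 33.3 and 28.6. Txnip, called only in XEN-iPS over XEN, gave 6.2 and 3.53 CPM against 28.6 and 46.6. Gstp1 overlapped between the sides (28.1 and 155 CPM against 19.2 and 147) and differed more between the libraries.

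**Figure D5:**
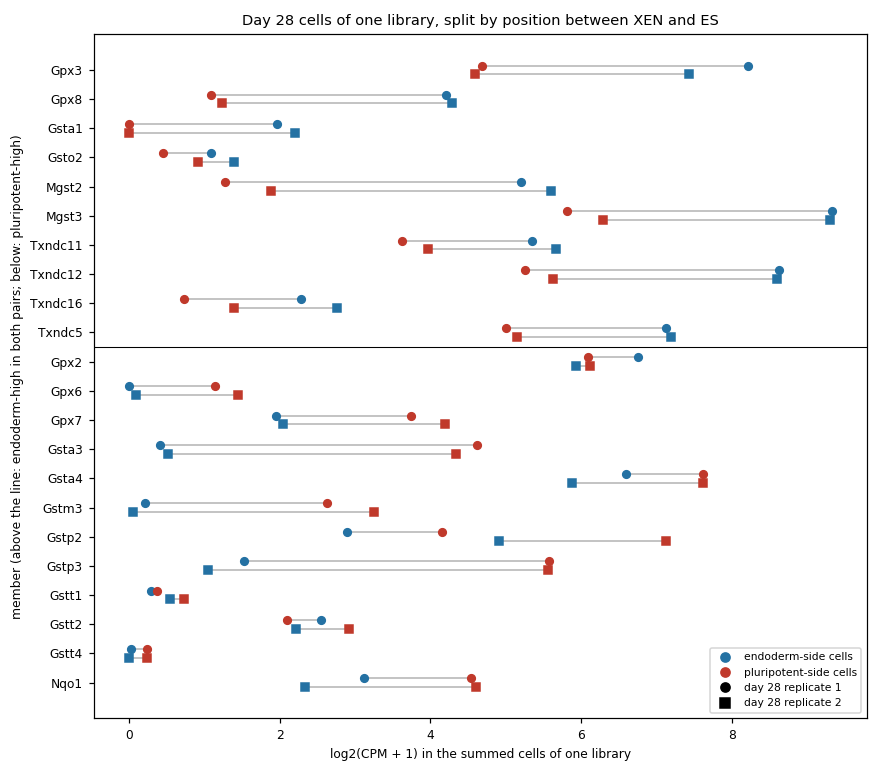
Each line joins the level of a member in endoderm-side (blue) and pluripotent-side (red) cells of the same day 28 library, on a log2(CPM + 1) axis; circles are replicate 1 and squares replicate 2. All 10 members above the dividing line have blue to the right, and 8 of the 12 below it have red to the right in both libraries without overlap.

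The members most alike in pattern were named by the Pearson correlation of log2(CPM + 1) over the 10 condition means, for the 3 members with the largest fitted change in both pairs. The fits of Gstt4 and Gsta1 rest on groups without a UMI, and for Gstt4 the counts bear out only at least 4.51-fold and 22.1-fold, so that its place in this ranking depends on the fit. Gsta3 was closest to Gstp3 (0.93) and Nqo1 (0.81), Gstt4 to Mgst1 (0.94) and Gstm3 (0.85), and Gsta1 to Txndc11 (0.92) and Gstm5 (0.80). Gstt4 and Gsta1 are under 5 CPM. Limited to members with at least 10 CPM in a condition, which was added after the values were seen, Gpx3 was closest to Txndc5 (0.95) and Txndc12 (0.93). The conditions share starting lines and project numbers, so these values are descriptions.

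Other genes of the pathway were followed with a list of 66 genes, of which 65 were tested. In ES against XEN, 29 were called, 11 higher and 18 lower (44.6%, beside 45.6% of all genes), and in iXEN against XEN-iPS 27, 16 higher and 11 lower (41.5% beside 43.8%). In both pairs 14 were higher in the endoderm cells (21.5%, beside 14.3% of all genes) and 8 in the pluripotent cells (12.3% beside 13.2%). Catalase (Cat) measured 70.4 and 59.2 CPM in XEN, 11.9 and 14 in ES, 80.7 and 71.6 in iXEN and 9.88 and 20.4 in XEN-iPS. Me1, malic enzyme, gave 78.6 and 116, 8.21 and 9.46, 159 and 298 and 13.1 and 10.7 in the same order. In ES over XEN Cat changed by -2.32 ± 0.36 (adjusted p = 5.15e-05) and Me1 by -3.46 ± 0.28 (adjusted p = 9.75e-08), and neither had overlapping libraries in either pair. Keap1, which holds Nrf2 back, and Bach1, its competitor, were also higher in the endoderm cells (-1.31 ± 0.20, adjusted p = 4.57e-05, and -2.15 ± 0.25, adjusted p = 3.76e-06, in ES over XEN), while Nfe2l2 itself gave 0.42 ± 0.27 (adjusted p = 0.193).

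Cbs and Cth, which make cysteine from homocysteine, were higher in the pluripotent cells of both pairs. Cbs measured 0.0917 and 0.199 CPM in XEN, 6.71 and 6.17 in ES, 0.598 and 0.159 in iXEN and 9.71 and 4.22 in XEN-iPS, and changed by 5.45 ± 0.60 (adjusted p = 1.97e-06) in ES over XEN, with 2.92 ± 0.49 (adjusted p = 0.000124) for Cth. Slc7a11, the subunit that imports cystine, gave 1.09 ± 0.98 (adjusted p = 0.362), not called. Sod2, the mitochondrial superoxide dismutase, was higher in ES by 1.38 ± 0.25 (adjusted p = 0.00024) and Sod1 gave -0.06 ± 0.29 (adjusted p = 0.866).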

How the data were processed

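Single-cell libraries of 20 samples were made with a droplet kit for 3' ends, and the authors used SEQC with mm10 to turn reads into UMI counts (version not given in the sources used here); the deposited values are raw counts, whole UMI counts without normalization. A deposited column of cluster numbers was not used. A cell needed 500 detected genes to be used, and each conversion was clustered (scanpy 1.11.5, Leiden at resolution 1, 30 neighbours). Clusters with fibroblast markers were removed, as were those named by marker lists as 2-cell-like or (in ES) differentiating. No doublet caller was run, but leaving out the top 5% of cells by UMIs was an alternative. At most 1.67% of the cell barcodes of a library were shared with another.

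UMIs were summed per library and tested in edgeR 4.0.16 (TMM, filterByExpr, quasi-likelihood test, Benjamini-Hochberg over 16718 genes; R 4.3.3), with 10 residual degrees of freedom; DESeq2 1.42.0 was an alternative. Libraries held 45475258 to 125699563 UMIs. No source used here gives a sequencing run, so libraries were grouped by the project number in their deposited names. Counting intervals (95%) and the floor of 3 UMIs cover counting error only. On simulated sums with 200 changed genes, of 16023 for ES against XEN and 16033 for iXEN against ES, 4-fold changes were recovered at 89% and 91% and 2.8-fold changes at 71% and 70%, with 8 and 3 false calls.

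Values in every library are given for members called the same way in both pairs or differing between the pairs; the other members with at least 10 CPM are given by range and test. Members and lists were chosen with earlier results of these data known. Promoters were matched by symbol to RefSeq (GRCm38.p6) for 53 of 62 members, and 22012 of 22936 columns matched a gene symbol.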

Additional observations from a re-analysis of the deposited data

Results flagged for a closer look

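For 16 members the log2 difference between pluripotent and endoderm cells was not the same in the starting lines (ES minus XEN) and in the products (XEN-iPS minus iXEN): the test of the difference between these contrasts, in the same edgeR model, gave an adjusted p under 0.05, beside 22.6% of all genes. In 5 of them both pairs were called the same way, by unequal amounts: Gpx7 9.71 (adjusted p = 3.97e-05), Nqo1 3.20 (adjusted p = 0.00217), Gsta1 -6.05 (adjusted p = 0.00878), Gstp2 -5.53 (adjusted p = 0.0177) and Gstp3 -2.56 (adjusted p = 0.0106). The values of Gpx7 and Gsta1 rest on a group without a UMI and depend on the prior count of the fit. The iXEN sums mix cells of different positions, as given with Gpx7, and the part of this in the differences was not tested. Gstt3 2.62 (adjusted p = 0.0113) was called with opposite signs. The other values were Txnrd2 -2.47 (adjusted p = 0.000844), Prdx5 -2.0 (adjusted p = 0.000534), Prdx3 -1.74 (adjusted p = 0.000671), Gclc 1.71 (adjusted p = 0.0294), Gstm7 1.46 (adjusted p = 0.0404), Gpx4 -1.41 (adjusted p = 0.00504), Txndc17 -1.41 (adjusted p = 0.00349), Gstm5 -1.34 (adjusted p = 0.0486), Txn1 -1.26 (adjusted p = 0.00822) and Txnl4a -1.25 (adjusted p = 0.007). Over the reported fit and 18 alternatives the ranges were 8.98 to 10.07 for Gpx7, 2.65 to 3.68 for Nqo1, -2.90 to -2.09 for Txnrd2, -2.57 to -1.75 for Prdx5 and -2.06 to -1.53 for Prdx3, with an adjusted p under 0.05 in each. The test was lost in 10 alternatives for Gstm7, 8 for Gstm5, 7 for Gclc, 3 for Gstp2 and 1 each for Gsta1 and Gstt3: for Gstp2 without XEN replicate 2 (-4.52, adjusted p = 0.168), without iXEN replicate 1 (-5.48, adjusted p = 0.0563) and without iXEN replicate 2 (-5.76, adjusted p = 0.053), for Gsta1 without XEN-iPS replicate 1 (-5.18, adjusted p = 0.0936), and for Gstt3 without XEN replicate 1 (2.23, adjusted p = 0.0577). The starting lines are of different genetic origin from each other and, by the study's account, share that origin with the product made from them. Line and cell state thus cannot be told apart in a single pair, and in ES against XEN neither can culture. A shared origin is not shown for every library: Y-linked genes summed to 5.15 and 5.61 CPM in iXEN and at most 0.125 in ES, and to 0.278 and 48.6 in XEN-iPS.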

How the results depend on the processing

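Of 239 called values of members, over 11 comparisons and the difference between the pairs, 149 were called in every alternative and 90 were lost in at least 1; the alternatives were replicate and project number blocks, RLE scaling, DESeq2, no filter on low counts, other cell filters, only the compared libraries, and each library left out. Counts of called members moved past 1.5-fold in few cases. At 9h over ES the count of 1 became 4 without the filter, 8 with only the compared libraries, 4 with DESeq2 and 0 with any library left out. At 24h over ES the count of 11 became 7 with no cluster removed and 5 to 9 with a library left out. From 24h to 48h the count of 13 became 7 with no cluster removed, 7 with only the compared libraries and 4 to 12 with a library left out. At day 7 over XEN the count of 12 was 7 to 13 with a library left out, 7 without day 7 replicate 2. Elsewhere, leaving out a library gave 26 to 28 calls in ES over XEN, 30 to 32 in iXEN over XEN-iPS, 12 to 16 at day 14, 19 to 21 at day 28, 31 to 35 in XEN-iPS over XEN, 19 to 26 at 48h, 24 to 30 in iXEN over ES, and 13 to 18 for the difference between the pairs. Signs turned for Gpx8 in iXEN over XEN-iPS (-0.12) and in XEN-iPS over XEN (1.31) and for Gsto2 in iXEN over XEN-iPS (-0.92) with no cluster removed, and for Hmox1 in iXEN over XEN-iPS without iXEN replicate 2 (-0.087, within -0.087 to 2.66 with a library left out); the cause was not tested. The replicate numbers were not used as pairs in the reported fit. Over 45 pairs of conditions the deviations of same-numbered libraries correlated at -0.18 to 0.46, with a median of -0.0088 and over 0.1 in 10. These values do not settle whether some conditions were paired. With a replicate block the counts were 33 in ES over XEN, 30 in iXEN over XEN-iPS, 12, 15, 21 and 32 along XEN-to-iPS, 1, 11, 26 and 28 along ES-to-iXEN, 13 from 24h to 48h, and 17 for the difference between the pairs. A block of project number could be fitted for ES over XEN (33), iXEN over XEN-iPS (31), day 28 over XEN (21), 24h to 48h (16) and the difference (16). Genes under about 1 CPM, such as Gpx6, Gstt4 and Gsta2, rest on few UMIs per library.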

Other observations

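The fibroblast-type cells left out of XEN-iPS replicate 2, feeder-like by their markers, carried their own pattern of these genes. In those 3824 cells against the kept cells of the same library, Gsto1 measured 584 CPM against 73, Hmox1 346 CPM against 27.2, Mgst1 83.2 CPM against 4.9, Prdx5 610.3 CPM against 169.6 and Gpx3 182 CPM against 28.7. Gsta3 was lower in them, at 2.07 CPM against 28.8. These are levels of cells within a single library, over the cells' own total and without TMM, and no test was made.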
